A study of Mus musculus with 12 samples.

Results

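Crabp1, Crabp2, Adh1, Aldh1a1, Aldh1a2, Rdh10, Stra6, Cyp26a1 and Rarb carry, make, break down or sense retinoic acid, and they are followed here in mouse yolk sacs with and without Hypb. These 9 genes of 18193 genes measured were chosen from retinoid enzymes, binding proteins and receptors on measured values, since Crabp1 was seen to be higher and Adh1 lower in the knockout. They are read by 10 of 45037 probe sets, with 2 for Rdh10 and 1 for each other gene. Hypb is the older name of Setd2, the enzyme that places the trimethyl mark of transcribed genes on histone H3. The 4 groups were E9.0 wild type (Hypb+/+), E9.0 knockout (Hypb-/-), E10.5 wild type and E10.5 knockout, all of mixed strain 129Sv/C57BL/6. Each group held 3 arrays, and each array read a pool of 4 yolk sacs of 1 genotype. According to the submitters, knockout embryos had no severe outward defect at the earlier stage and were close to death at the later one. The labels give neither the deleted part of Hypb nor whether it was removed from all cells.

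Vitamin A reaches a cell as retinol, which the receptor Stra6 takes up from its carrier in blood. Retinol is oxidised to retinal by Rdh10 and also by the alcohol dehydrogenase Adh1, and retinal to retinoic acid by Aldh1a1 and Aldh1a2. Retinoic acid is bound by Crabp1 and Crabp2 in the cytoplasm, acts through nuclear receptors such as Rarb, and is broken down by Cyp26a1. Rarb and Cyp26a1 are themselves classic retinoic acid target genes. In the yolk sac the visceral endoderm handles maternal retinol, and retinoic acid is needed for the yolk sac vessels.

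Retinoic acid receptors bind short direct repeats, so the 250 bases before the annotated start were read for the 7 of 9 genes with an entry, in 11 windows (RefSeq, build GRCm38.p6). Crabp2 and Rdh10 had no entry. The motif searched was AGGTCA or AGTTCA or GGGTCA or GGTTCA on either strand, alone and as direct repeats spaced by 1, 2 or 5 bases. Rarb and Cyp26a1 are printed because each holds a repeat with a spacing of 5 bases, and Crabp1, Aldh1a2 and Adh1 because they differed most between genotypes. Each is written 5′ to 3′ on the strand of its gene, with every match in capitals.
Rarb, chr14:16575477-16575726, minus strand: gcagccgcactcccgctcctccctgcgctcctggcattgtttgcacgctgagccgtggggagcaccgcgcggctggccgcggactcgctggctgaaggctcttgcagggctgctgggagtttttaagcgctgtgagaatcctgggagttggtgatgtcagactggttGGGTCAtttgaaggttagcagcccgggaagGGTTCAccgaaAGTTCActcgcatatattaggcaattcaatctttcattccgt
Cyp26a1, chr19:37697558-37697807, plus strand: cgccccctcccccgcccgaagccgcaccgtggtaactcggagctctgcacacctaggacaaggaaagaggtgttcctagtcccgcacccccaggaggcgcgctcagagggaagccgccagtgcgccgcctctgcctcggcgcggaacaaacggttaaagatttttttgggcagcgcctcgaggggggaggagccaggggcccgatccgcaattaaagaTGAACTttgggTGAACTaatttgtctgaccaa
Crabp1, chr9:54764498-54764747, plus strand: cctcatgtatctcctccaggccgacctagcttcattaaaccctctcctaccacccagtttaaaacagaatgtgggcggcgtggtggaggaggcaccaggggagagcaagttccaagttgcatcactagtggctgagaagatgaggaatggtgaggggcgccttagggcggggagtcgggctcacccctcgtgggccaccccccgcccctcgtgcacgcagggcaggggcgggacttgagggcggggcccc
Aldh1a2, chr9:71215539-71215788, plus strand: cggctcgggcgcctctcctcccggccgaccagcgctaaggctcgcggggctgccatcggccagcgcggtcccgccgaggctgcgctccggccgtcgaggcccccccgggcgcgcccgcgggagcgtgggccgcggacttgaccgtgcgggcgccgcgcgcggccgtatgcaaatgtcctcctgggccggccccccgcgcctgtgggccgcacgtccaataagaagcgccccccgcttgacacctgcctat
Adh1, chr3:138277335-138277584, plus strand: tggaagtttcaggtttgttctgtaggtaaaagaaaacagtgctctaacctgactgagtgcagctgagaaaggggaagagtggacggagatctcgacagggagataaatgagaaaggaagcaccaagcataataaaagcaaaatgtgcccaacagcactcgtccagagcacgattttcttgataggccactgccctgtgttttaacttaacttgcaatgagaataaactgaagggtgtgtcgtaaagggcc

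In Rarb the repeat lies 53 to 37 bases before the start on the gene's own strand, and a further motif lies 83 to 78 bases before it. In Cyp26a1 the repeat lies 32 to 16 bases before the start on the opposite strand. A repeat with this spacing was present in 29 of 32851 windows of the same length, or 0.0883%, against 0.164% for a spacing of 1 base and 0.174% for a spacing of 2 bases. The motif alone was present in 38.6% of windows and is seen once in 1 window of Aldh1a1. None of the 4 motifs was found in the windows of Crabp1, Aldh1a2, Adh1 or Stra6, which says only that these letters are not there. Each match is a match of letters, and binding was not measured.

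Setd2 itself was lower in the knockout, with a log2 change of -1.29 (SE 0.134; adjusted p = 0.00207) at E9.0 and -0.83 (SE 0.134; adjusted p = 0.00294) at E10.5. Here and below an adjusted p is a Benjamini-Hochberg value over all 18193 genes from 1 limma fit to the 12 arrays, with a threshold of 0.05, and SE is the standard error of the fitted log2 change. The visceral endoderm markers that define the tissue were high on average on every array, with a mean log2 level of 11.46 to 12.04 over 15 genes. Not each of them was high, as albumin (Alb) lay at 3.84 to 4.55 on the E9.0 arrays. Replicate 3 stood apart in some of the control probe sets. On the E9.0 arrays BioC exceeded BioB by 0.01 and -0.11 in replicate 3 against 1.44 to 1.50 elsewhere, and on the E10.5 arrays the dap control's 3′ minus 5′ difference was 1.85 and 1.87 against 1.23 to 1.44. At E10.5 BioC minus BioB was 1.41 and 1.51 in replicate 3 against 1.41 to 1.46 in the others. Parietal endoderm, trophoblast and decidua markers, which are signs of neighbouring tissue, had their highest summed levels on E9.0 knockout replicate 3 and E9.0 wild type replicate 1. The arrays were made from whole tissue, so fewer cells of a type and less RNA per cell cannot be told apart.

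Values are log2 RMA values, listed in the order of replicates 1, 2 and 3, and a level is compared only within a gene, because probe sets differ in brightness. The knockout comparisons chose these genes, so their differences between genotypes are descriptions without a test. The plot of each gene by array shows all 12 values.

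**Figure D1:**
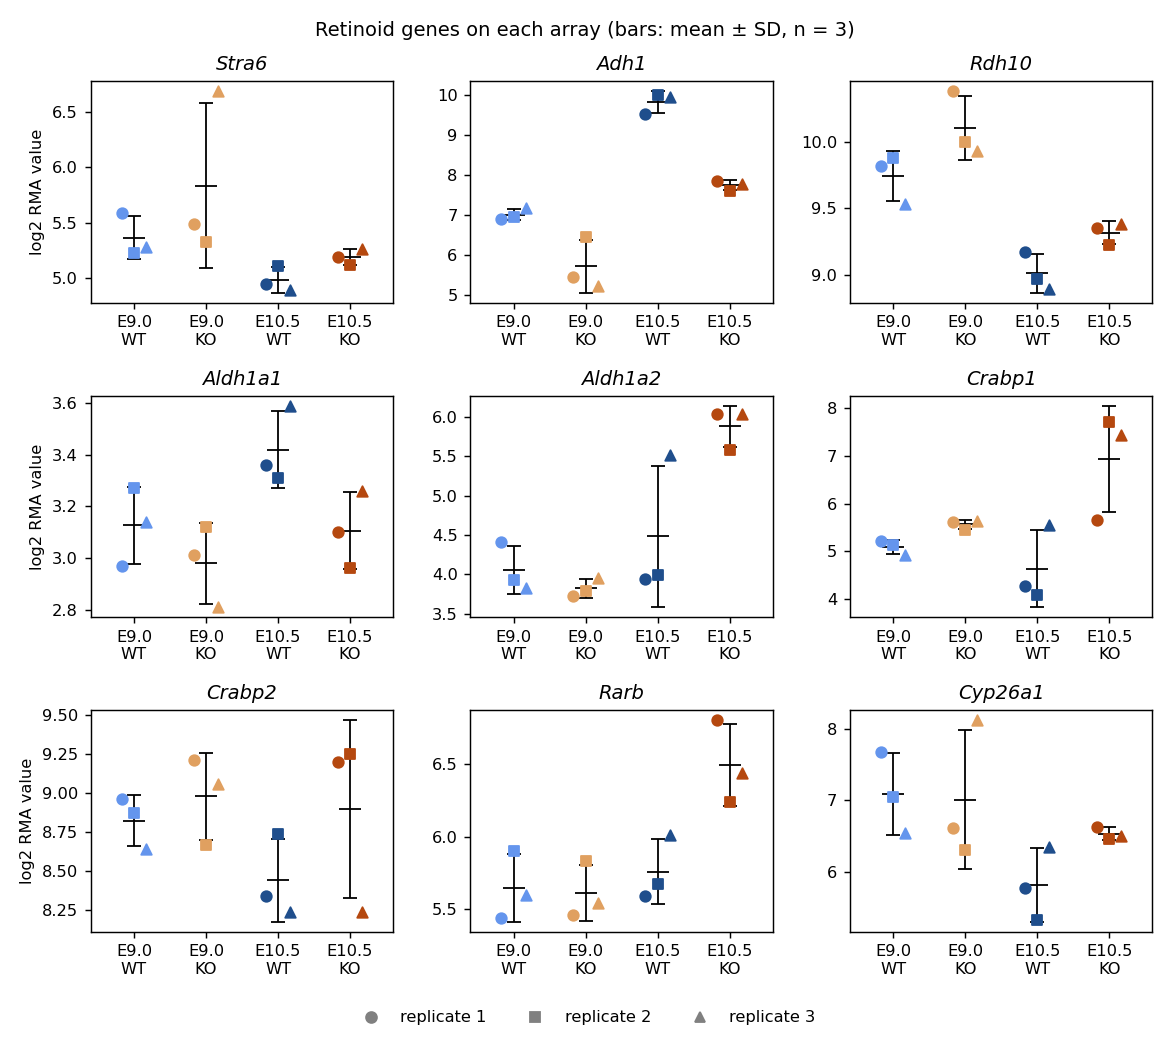
Log2 RMA value (vertical axis) of the 9 retinoid genes on each of the 12 arrays, by group (horizontal axis), with bars for the mean and SD of 3 arrays and a symbol for each replicate number. Adh1 rises with stage and is lower in the knockout at both stages, while Crabp1, Aldh1a2 and Rarb are highest in the E10.5 knockout.

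Stra6, the uptake receptor for retinol, was at 5.59, 5.23 and 5.28 in the E9.0 wild type and at 5.49, 5.33 and 6.69 in the E9.0 knockout. At E10.5 it was at 4.95, 5.11 and 4.89 in the wild type and at 5.19, 5.12 and 5.26 in the knockout. A single E9.0 knockout pool, replicate 3, lay far above all others. Knockout minus wild type was 0.47 (SE 0.265) at E9.0 and 0.043 without that array, and it was 0.21 (SE 0.265) at E10.5, where the groups did not overlap. The same array had the highest summed level of the parietal endoderm, trophoblast and decidua markers, at 30321 on the linear scale, followed by E9.0 wild type replicate 1 at 19152. The other 4 E9.0 arrays lay at 11335 to 13540 and the E10.5 arrays at 8321.3 to 13350. Between genotypes 0 of these 10 markers passed at either stage, with 0 at an unadjusted p under 0.05. E9.0 knockout replicate 3 was the highest array for 5 of the 10 (Sparc, Col4a1, Col4a2, Lama1 and Thbd) and E9.0 wild type replicate 1 for 2 (Prl8a2 and Pgr), while Hand1, Des and Tpbpa were highest on other arrays. Lama1 was at 11.86 and 10.43 on those 2 arrays, and the part of such tissue in the Stra6 values was not tested.

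Adh1, a cytosolic alcohol dehydrogenase that can oxidise retinol, had the widest range of the 9 genes, with group means spanning 4.12 on the log2 scale. In the wild type it was at 6.90, 6.94 and 7.16 at E9.0 and at 9.52, 10.01 and 9.96 at E10.5. In the knockout it was at 5.44, 6.45 and 5.23 at E9.0 and at 7.85, 7.61 and 7.77 at E10.5. The order from high to low was E10.5 wild type, E10.5 knockout, E9.0 wild type and E9.0 knockout, and no neighbours in it overlapped. Knockout minus wild type was -1.29 (SE 0.249; 2.45-fold lower) at E9.0 and -2.09 (SE 0.249; 4.25-fold lower) at E10.5. E9.0 knockout replicate 2 was the highest knockout value of that stage, and without it the change at E9.0 was -1.67.

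Rdh10, the retinol dehydrogenase that supplies most retinal for retinoic acid in the embryo, differed in the other direction and by much less. It was at 9.82, 9.88 and 9.53 in the E9.0 wild type and at 10.38, 10.00 and 9.93 in the E9.0 knockout. At E10.5 it was at 9.17, 8.97 and 8.89 in the wild type and at 9.35, 9.22 and 9.38 in the knockout. The knockout was above the wild type without overlap at both stages, by 0.36 and 0.31 (SE 0.136 each). Its second probe set gave 0.21 and 0.16 (SE 0.145 each), and there the genotypes overlapped at both stages. At E9.0 it read 7.32 to 7.60 in the wild type and 7.47 to 7.90 in the knockout. At E10.5 it read 6.65 to 7.00 and 6.85 to 7.24.

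The enzymes that form retinoic acid itself behaved differently from each other. Aldh1a1 was among the dimmest genes, at the 7.99th percentile of mean levels, and lay between 2.81 and 3.59 on all 12 arrays. It was 0.15 lower in the knockout at E9.0 in overlapping groups and 0.31 lower (SE 0.124) at E10.5 in groups that did not overlap. Aldh1a2, the main retinal dehydrogenase of early embryos, where it is known from mesoderm, was at 4.41, 3.93 and 3.83 in the E9.0 wild type and at 3.73, 3.79 and 3.96 in the E9.0 knockout. At E10.5 it was at 3.94, 3.99 and 5.52 in the wild type and at 6.03, 5.58 and 6.03 in the knockout. The E10.5 knockout pools were the 3 highest of all, although wild type replicate 3 came close to the lowest of them. Knockout minus wild type was -0.23 (SE 0.332) at E9.0 and 1.40 (SE 0.332; 2.63-fold higher) at E10.5, and without E10.5 wild type replicate 3 the latter was 1.92. Within the inferred batches it was 1.84 in replicates 1 and 2 and 0.51 in replicate 3.

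Crabp1, a cytoplasmic retinoic acid binding protein, was at 5.21, 5.13 and 4.93 in the E9.0 wild type and at 5.61, 5.45 and 5.64 in the E9.0 knockout. At E10.5 it was at 4.27, 4.08 and 5.56 in the wild type and at 5.66, 7.71 and 7.45 in the knockout. Both stages showed the knockout above the wild type without overlap, but at E10.5 knockout replicate 1 exceeded wild type replicate 3 by a narrow margin only. Knockout minus wild type was 0.48 (SE 0.458) at E9.0 and 2.30 (SE 0.458; 4.94-fold higher) at E10.5, and leaving out each array in turn gave 1.92 to 2.94 at E10.5. It was 2.51 in replicates 1 and 2 and 1.89 in replicate 3.

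Crabp2, which delivers retinoic acid to the nuclear receptors, was far more even. It was at 8.96, 8.87 and 8.64 in the E9.0 wild type, at 9.21, 8.67 and 9.06 in the E9.0 knockout, at 8.34, 8.74 and 8.24 in the E10.5 wild type and at 9.20, 9.25 and 8.24 in the E10.5 knockout. The genotypes overlapped at both stages, with differences of 0.16 and 0.46 (SE 0.242 each).

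Rarb, a nuclear receptor whose own gene responds to retinoic acid, was at 5.44, 5.90 and 5.60 in the E9.0 wild type and at 5.46, 5.83 and 5.54 in the E9.0 knockout. At E10.5 it was at 5.59, 5.67 and 6.01 in the wild type and at 6.80, 6.24 and 6.44 in the knockout. Its first 3 groups overlapped one another, and the E10.5 knockout stood above all of them. Knockout minus wild type was -0.037 (SE 0.171) at E9.0 and 0.74 (SE 0.171; 1.67-fold higher) at E10.5, with 0.89 in replicates 1 and 2 and 0.43 in replicate 3.

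Cyp26a1, which clears retinoic acid, was at 7.68, 7.04 and 6.54 in the E9.0 wild type and at 6.61, 6.30 and 8.12 in the E9.0 knockout. At E10.5 it was at 5.77, 5.32 and 6.35 in the wild type and at 6.63, 6.46 and 6.50 in the knockout. The E9.0 pools were widely scattered within each genotype and overlapped, whereas the E10.5 groups did not overlap. Knockout minus wild type was -0.077 (SE 0.412) at E9.0, made up of -0.90 in replicates 1 and 2 and 1.58 in replicate 3, and 0.72 (SE 0.412) at E10.5. The 2 highest Cyp26a1 values, on E9.0 knockout replicate 3 and E9.0 wild type replicate 1, were on the arrays with the 2 highest sums of parietal endoderm, trophoblast and decidua markers. Thbd, another gene of that list, was at 9.17 and 8.34 there and at 6.36 to 7.49 on the others, unlike Hand1, Des and Tpbpa, and the part of such tissue in the Cyp26a1 values was not tested.

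**Figure D2:**
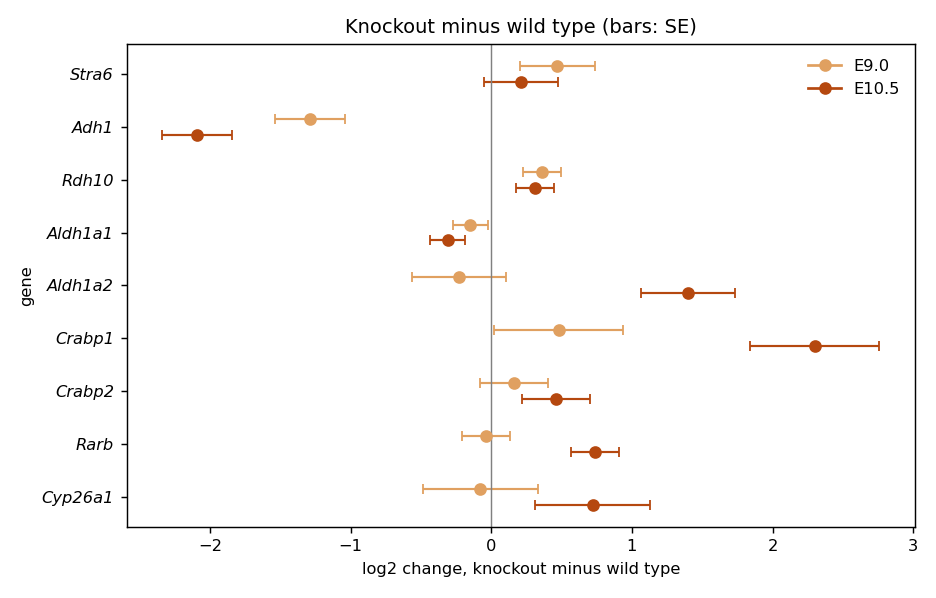
Fitted log2 change, knockout minus wild type (horizontal axis), for the 9 retinoid genes at E9.0 and E10.5, with bars of 1 SE. Adh1 lies below 0 at both stages, and Crabp1 (2.30), Aldh1a2 (1.40), Rarb (0.74) and Cyp26a1 (0.72) are the highest at E10.5.

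Counted over the 9 genes, 1 was past the threshold at E9.0 (0 higher and 1 lower), where 1.18% of all genes were (0.550% higher and 0.632% lower). At E10.5 4 were past it (3 higher and 1 lower), where 7.28% of all genes were (4.12% higher and 3.16% lower). The 3 knockout arrays lay all above or all below the 3 wild type arrays for 3 of the 9 genes at E9.0, against 18.0% of all genes, and for 8 at E10.5, against 22.8%. Rdh10 is counted at both stages by its brighter probe set only. These comparisons chose the genes, so the counts are descriptive. The median log2 change was -0.037 at E9.0 and 0.46 at E10.5, beside -0.0067 and -0.013 over all genes. The knockout difference at E10.5 minus that at E9.0 was 1.83 (SE 0.648) for Crabp1, 1.63 (SE 0.469) for Aldh1a2, 0.77 (SE 0.242) for Rarb and -0.79 (SE 0.352) for Adh1. It was -0.42 for Adh1 without E9.0 knockout replicate 2 and 2.15 for Aldh1a2 without E10.5 wild type replicate 3. In this comparison 0 of the 9 genes were past the threshold, beside 0.187% of all genes.

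The change from E9.0 to E10.5 within a genotype did not itself choose the genes and was tested. Its wild type and knockout arrays are also those of the comparisons that chose them, and a gene chosen for a high or low value in a group is favoured to change with stage, so these tests are not independent of the choice. In the wild type Adh1 rose by 2.83 (SE 0.249; 7.11-fold; adjusted p = 1.50e-05), Rdh10 fell by 0.73 (SE 0.136; adjusted p = 0.00221) and Cyp26a1 fell by 1.27 (SE 0.412; 2.42-fold; adjusted p = 0.0427). These 3 of 9 genes (1 higher and 2 lower) stand beside 22.2% of all genes (13.4% higher and 8.86% lower). The arrays of the stages did not overlap for 5 of the 9 genes, against 40.0% of all genes. Both Rdh10 probe sets fell, with -0.63 (SE 0.145) for the second. The Cyp26a1 call was near the threshold. It was lost without E9.0 wild type replicate 1 (-0.98; adjusted p = 0.166) or replicate 2 (-1.30; 0.0922), without E10.5 wild type replicate 1 (-1.25; 0.1) or replicate 2 (-1.03; 0.154), and without E10.5 knockout replicate 1 (0.0527) or replicate 2 (0.0545). Crabp1 (-0.45; adjusted p = 0.546), Crabp2 (-0.38; 0.305), Stra6 (-0.38; 0.352), Aldh1a1 (0.29; 0.115), Aldh1a2 (0.43; 0.413) and Rarb (0.11; 0.71) did not pass. Stra6 passed, at the same change, without E9.0 knockout replicate 3 (adjusted p = 0.0308).

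In the knockout 5 of 9 genes passed (4 higher and 1 lower), beside 23.6% of all genes (14.4% higher and 9.17% lower). Adh1 rose by 2.04 (SE 0.249; 4.1-fold; adjusted p = 0.000144), Aldh1a2 by 2.05 (SE 0.332; 4.15-fold; adjusted p = 0.000908) and Rarb by 0.88 (SE 0.171; adjusted p = 0.00274). Rdh10 fell by 0.79 (SE 0.136; adjusted p = 0.00137), close to its fall in the wild type. Crabp1 rose by 1.37 (SE 0.458; adjusted p = 0.0463), a call that was lost when any of 9 of the 12 arrays was left out, with values from 0.99 to 1.41. Those 9 were the 6 E9.0 arrays (adjusted p from 0.0562 to 0.114), E10.5 wild type replicate 1 (adjusted p = 0.0557), E10.5 knockout replicate 2 (0.99; adjusted p = 0.187) and replicate 3 (1.12; adjusted p = 0.129). Crabp2 (-0.083; adjusted p = 0.855), Aldh1a1 (0.13; 0.525), Stra6 (-0.65; 0.0999) and Cyp26a1 (-0.48; 0.459) did not pass, although Stra6 did without E9.0 knockout replicate 2 (-0.90; 0.0332). Without E9.0 knockout replicate 3, the change was -0.22 for Stra6 and 0.075 for Cyp26a1, and neither passed. The stages did not overlap for 6 of the 9 genes, against 34.6% of all genes. Aldh1a2, Rarb and Crabp1 thus passed in the knockout and not in the wild type. A difference between genotypes in the change with stage is the same quantity as the difference of knockout effects given above, where 0 of the 9 genes were past the threshold, so such a difference was not shown for these 3 genes.

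**Figure D3:**
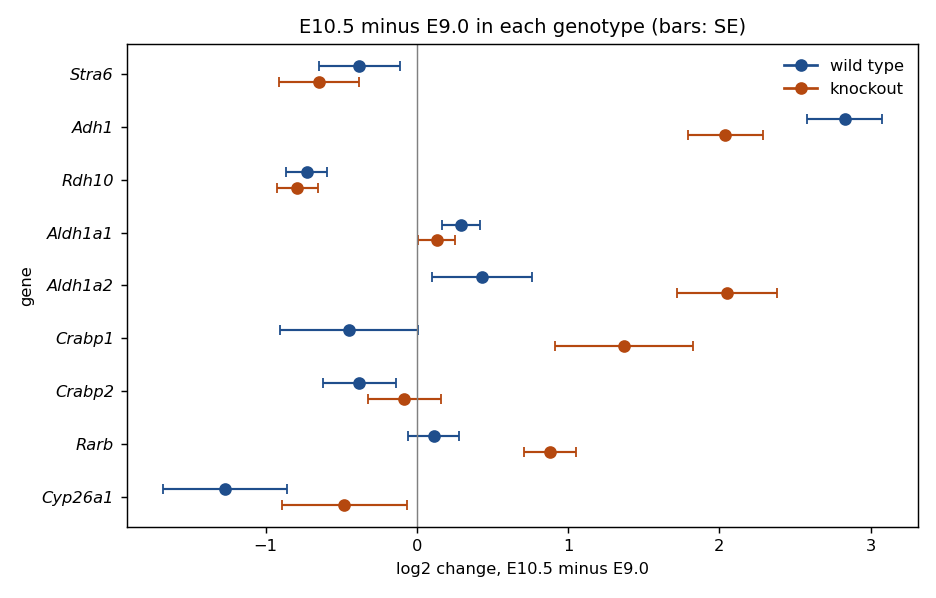
Fitted log2 change, E10.5 minus E9.0 (horizontal axis), for the 9 retinoid genes in each genotype, with bars of 1 SE. Adh1 rises and Rdh10 falls in both genotypes, and Aldh1a2 is at 0.43 in the wild type and 2.05 in the knockout.

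Some genes of mesenchyme, mesothelium and smooth muscle were also higher in the E10.5 knockout, the group with the highest Aldh1a2, Crabp1 and Rarb. Of 17 such markers 5 rose and 0 fell at E10.5, with 0 in either direction at E9.0 (3 at an unadjusted p under 0.05). The share of all genes that rose at E10.5 was 4.12%, and the median change of the 17 was 0.067, with Col1a1 at -0.25 (adjusted p = 0.814). The intermediate filament gene Vim rose by 0.76 (adjusted p = 0.00323), the mesothelial factor Tbx18 by 1.64 (adjusted p = 0.00405) and smooth muscle actin Acta2 by 0.76 (adjusted p = 0.00786). The summed linear level of the 17 was 34138 to 39883 in the E10.5 wild type, with replicate 3 the highest, and 37358 to 52165 in the E10.5 knockout. The mesothelial marker Wt1 was at 3.82, 3.93 and 4.61 in the E10.5 wild type and at 4.72, 5.08 and 5.65 in the knockout. Wild type replicate 3, the highest of its group for Wt1, was also the highest of its group for Aldh1a2, Crabp1, Rarb and Cyp26a1. Replicate 3 is also the inferred batch. Of the 5 markers that rose, Tbx18 was highest there too, whereas Vim, Acta2 and Tagln were highest on wild type replicate 1. In the E10.5 knockout Rarb was highest on replicate 1 (6.80), where Wt1 (4.72) and Crabp1 (5.66) were lowest. Markers of the embryo proper moved as well at E10.5, with 1 of 14 neural markers higher (Sox11, by 2.47; adjusted p = 0.0219) and 3 of 12 heart and somite markers higher, among them Myl7 by 3.21 (adjusted p = 0.00477). The summed neural level was 478.14 to 570.13 in the E10.5 wild type and 701.94 to 921.16 in the knockout, and the summed heart and somite level 495.51 to 584.72 and 864.05 to 2584.8. Without Sox11 the neural sum was 439.6 to 450.7 in the wild type and 443.4 to 459.4 in the knockout, and the median change of the 14 was -0.058. The median change of the 12 heart and somite markers was 0.15. The brightest of them, Actc1, did not pass, at 8.28, 7.88 and 7.87 in the E10.5 wild type and 10.31, 8.50 and 10.01 in the knockout. Nkx2-5 was at 5.05, 4.99 and 5.00 and at 4.96, 5.03 and 4.92. Tbx5 was at 4.82, 4.92 and 5.02 and at 4.78, 5.19 and 4.97. Of 10 macrophage and myeloid markers 5 rose and 1 fell at E10.5 (median 0.37), beside 4.12% and 3.16% of all genes. At E9.0 2 rose and 1 fell, beside 0.550% and 0.632%. The fall at E10.5 was Fcgr3, from 10.34, 10.71 and 10.56 in the wild type to 8.40, 9.22 and 8.54 in the knockout. Among 10 endothelial markers 1 rose at E10.5 (Pecam1, by 0.86; adjusted p = 0.0453) and 0 fell, with a median of 0.39. Among 9 primitive erythroid markers 1 fell (Epb42, by 1.25; adjusted p = 0.0315) and 0 rose, with a median of -0.42. The part of any of these cells in the Crabp1, Aldh1a2 and Rarb values was not tested. RMA values have no true zero, so none of these markers can be given as absent.

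Beside Adh1, 3 of 15 visceral endoderm markers fell in the E10.5 knockout and 0 rose, beside 3.16% of all genes that fell, and the median change of the 15 was -0.25. Albumin (Alb) fell by 2.22 (SE 0.216; adjusted p = 0.000113), Ambp by 0.76 (SE 0.177; adjusted p = 0.0208) and the uptake receptor Cubn by 0.36 (SE 0.0924; adjusted p = 0.0353). The summed linear level of the 15 was 110590 to 116030 in the E10.5 wild type and 99461 to 106600 in the knockout, and 0 of the 15 passed at E9.0 (1 at an unadjusted p under 0.05), where Adh1 was already lower without overlap. Like Adh1, Alb rose with stage in the wild type, by 3.82 (adjusted p = 5.33e-07), from 4.27, 3.84 and 4.55 at E9.0, which is low on the scale. The part of the endoderm in the Adh1 values was not tested.

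**Figure D4:**
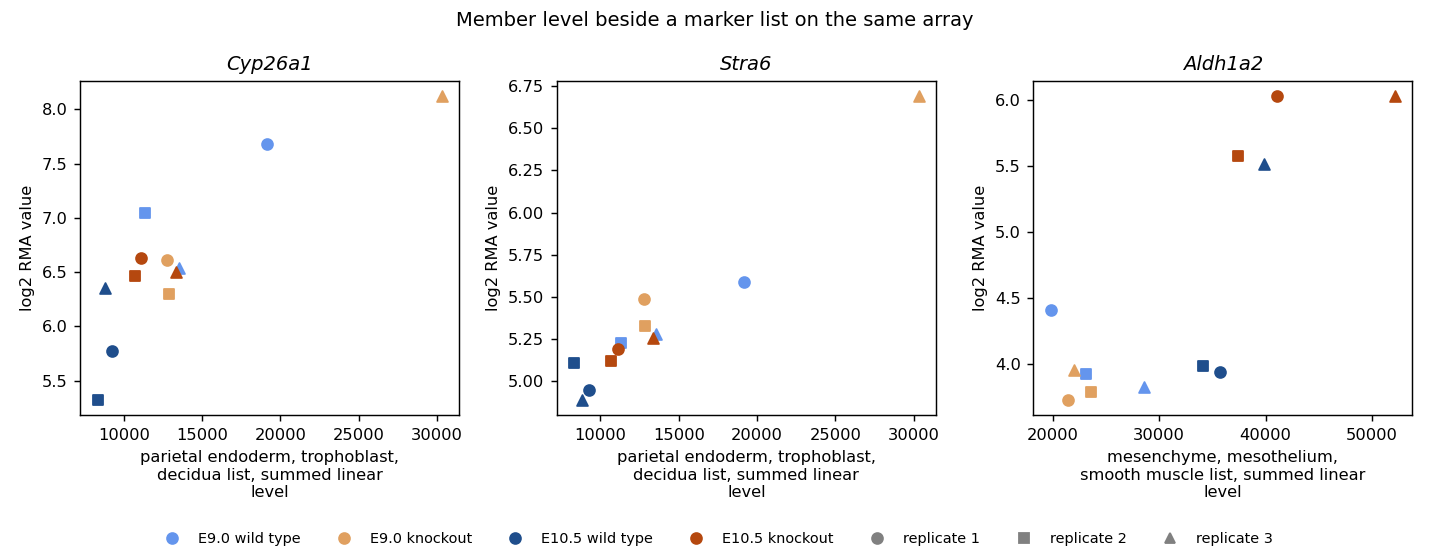
Log2 RMA value of Cyp26a1, Stra6 and Aldh1a2 (vertical axes) against the summed linear level of a marker list on the same 12 arrays (horizontal axes), with a colour for each group and a symbol for each replicate. E9.0 knockout replicate 3 and E9.0 wild type replicate 1 are highest for Cyp26a1, Stra6 and their marker list, and 3 E10.5 knockout arrays with wild type replicate 3 are highest for Aldh1a2.

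For the 5 genes whose group means span more than 1 on the log2 scale, the 3 genes with the most similar pattern over the 12 arrays were found by Pearson's r. The arrays form 4 groups, so r here mixes group differences with the scatter inside groups and is a description. Adh1 was most like Tatdn1 (r = 0.985), Slc22a2 (0.979) and Rdh12 (0.979), which is itself a retinal reductase. Crabp1 was most like Tspoap1 (0.956), Car5b (0.908) and Dync1i1 (0.900), and Aldh1a2 most like Sema3c (0.958), U2surp (0.957) and Lrmda (0.938). Rdh10 was most like Pip4k2a (0.979), Csnk1g3 (0.974) and Rfwd3 (0.968), and Cyp26a1 most like Cdc42se2 (0.952), Sox7 (0.929) and Sirt6 (0.926).

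Beyond the 9 genes, 62 of 73 listed genes of retinoid transport, metabolism, sensing and response were measured, and they were tested in all comparisons. At E9.0 0 of 62 passed between genotypes, with 10 at an unadjusted p under 0.05. At E10.5 10 of 62 passed, 6 higher and 4 lower, beside the 7.28% of all genes, and the median change was -0.037 beside -0.013. With each array centred on its median 6 passed, 2 higher and 4 lower. The difference between stages passed for 0 of 62, with 13 at an unadjusted p under 0.05.

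The 4 falls at E10.5 were in enzymes and an uptake receptor. Stra6l, a membrane receptor for the retinol carrier that is related to Stra6, was at 6.25, 6.45 and 7.00 in the E10.5 wild type and at 5.04, 5.30 and 5.26 in the knockout, a change of -1.37 (SE 0.194; adjusted p = 0.0012). Bco2, which cleaves carotenoids, was at 6.07, 5.59 and 6.06 in the wild type and at 4.75, 4.75 and 5.01 in the knockout, a change of -1.07 (SE 0.137; adjusted p = 0.00065). In both genes the genotypes stood well apart. Aldh8a1, classed as a retinal dehydrogenase, was at 5.59, 6.40 and 5.99 in the wild type and at 4.76, 5.24 and 5.11 in the knockout, a change of -0.96 (SE 0.174; adjusted p = 0.006), and its other probe set gave -1.57 (SE 0.239). Rdh12 was at 8.23, 8.26 and 8.47 in the wild type and at 7.65, 7.77 and 7.64 in the knockout, a change of -0.63 (SE 0.121; adjusted p = 0.00786), with -0.66 (SE 0.194) for its other probe set. These 4 calls held whichever array was left out, and Rdh12 alone of them was lost with replicates 1 and 2 only (-0.54; adjusted p = 0.0627). Stra6l, Aldh8a1 and Rdh12 also shared the stage pattern of Adh1 in the wild type, rising by 1.52, 1.07 and 0.98 (adjusted p = 0.000194, 0.000976 and 0.000162). Bco2 rose by less, 0.46, past the threshold in the main fit but not when any of 4 arrays was left out.

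The 6 rises at E10.5 were closer to the threshold, with adjusted p from 0.0145 to 0.0492. The retinol dehydrogenase Rdh5 rose by 0.71 (SE 0.184; adjusted p = 0.0346), from 5.26, 5.32 and 5.40 in the wild type to 5.66, 6.00 and 6.46 in the knockout. The short-chain dehydrogenase Dhrs7 rose by 0.51 (adjusted p = 0.0491), while its other probe sets gave -0.02 and -0.033. Cyp1b1, a cytochrome that can form retinoic acid, rose by 0.86 (adjusted p = 0.0492), with 0.46 and -0.14 on its other probe sets. Among 15 measured retinoic acid target genes 3 rose and 0 fell, beside 4.12% of all genes that rose, with a median of 0.35 beside -0.013 over all genes. They were the homeobox genes Hoxb1 (0.53; adjusted p = 0.0145) and Meis2 (0.48; adjusted p = 0.0282) and the zinc finger gene Zfp703 (0.66; adjusted p = 0.0361), whose other probe sets gave 0.05 and 0.24. Hoxb1 was dim, at 3.53 to 3.71 in the wild type and 4.03 to 4.41 in the knockout, and its call was lost without E10.5 wild type replicate 3 (0.48; adjusted p = 0.0584). Each of the other 5 was lost when any of at least 4 arrays was left out, E10.5 wild type replicates 1 and 3 among them in every case, with adjusted p up to 0.193 for Cyp1b1, 0.169 for Dhrs7, 0.139 for Zfp703, 0.112 for Meis2 and 0.111 for Rdh5.

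**Figure D5:**
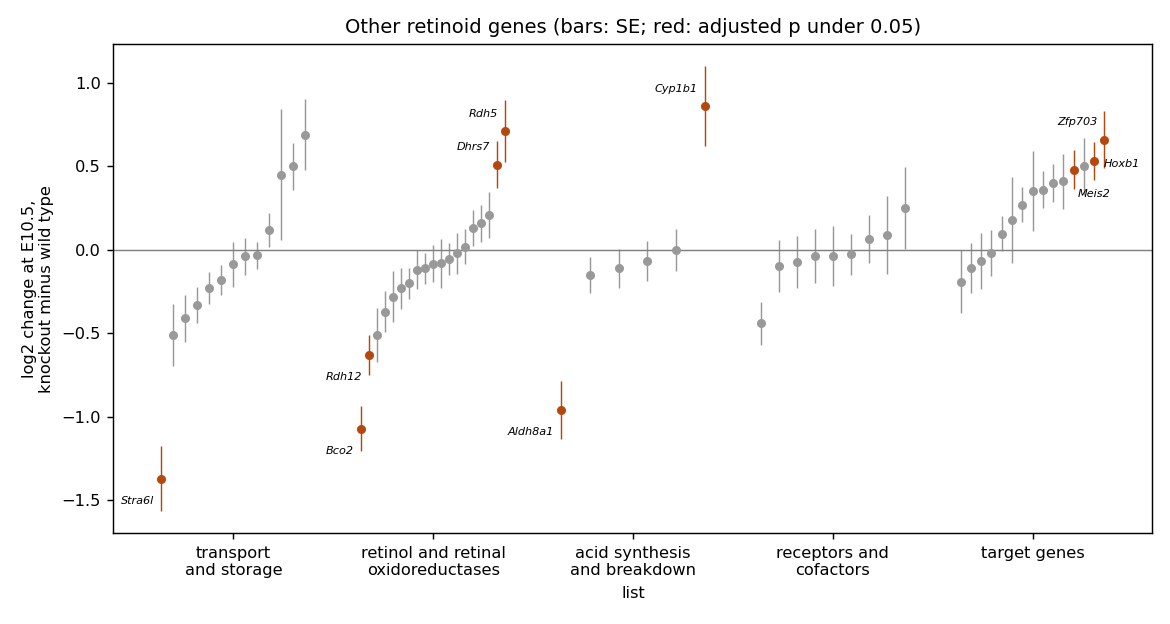
Fitted log2 change, knockout minus wild type at E10.5 (vertical axis), of the 62 other measured retinoid genes, ordered by change inside each of 5 lists (horizontal axis), with bars of 1 SE and red for an adjusted p under 0.05. Stra6l, Bco2, Aldh8a1 and Rdh12 are the 4 falls, and the receptors and cofactors hold 0 red points.

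The measured changes of the other receptors were small. Between genotypes 0 of 9 receptors and cofactors passed at either stage, beside 1.18% of all genes at E9.0 and 7.28% at E10.5. At an unadjusted p under 0.05 there were 0 at E9.0 and 1 at E10.5. Ncoa3 was at 6.69, 6.87 and 6.41 in the E10.5 wild type and at 6.18, 6.12 and 6.35 in the knockout. It passed in some other fits, such as replicates 1 and 2 only, while its other probe set gave 0.04 (SE 0.138). At E10.5 the change was -0.073 (SE 0.153) for Rara, 0.063 (SE 0.143) for Rarg, -0.037 (SE 0.178) for Rxra, -0.097 (SE 0.153) for Rxrb and -0.027 (SE 0.123) for Rxrg. The other breakdown enzyme of the family, Cyp26b1, was at 5.80 in both genotypes (change 0, SE 0.124). The retinol carrier Rbp4, made by the endoderm, averaged 13.74 in wild type and 13.56 in knockout pools (-0.18, SE 0.0913; adjusted p = 0.314).

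With stage, 16 of the 62 genes passed in the wild type (14 higher and 2 lower) and 17 in the knockout (15 higher and 2 lower), beside 22.2% and 23.6% of all genes. Of 13 genes of retinoid transport and storage 5 rose and 0 fell in the wild type, and 5 rose and 1 fell in the knockout. Lpl, whose lipase releases retinyl esters from lipoproteins, rose by 1.15 in the wild type and 2.22 in the knockout (adjusted p = 0.000148 and 1.08e-06), and Fabp5, a carrier of fatty acids and retinoic acid, by 1.17 and 1.00 (0.000136 and 0.000402). The retinol binding protein gene Rbp2 rose by 1.42 and 1.87 (0.0199 and 0.0043), the first lost without E9.0 wild type replicate 1 (1.09; adjusted p = 0.0887) or replicate 2 (1.26; 0.0774) or E10.5 wild type replicate 2 (1.27; 0.0729). The lipoprotein and carotenoid uptake receptor Scarb1 was the fall, by 0.82 in the knockout (adjusted p = 0.00688) against a change of -0.27 in the wild type (0.354). Among the oxidoreductases 7 of 19 rose and 0 fell in each genotype, including Dhrs3, which reduces retinal, by 0.63 and 0.52 (0.00321 and 0.00916). Cd36, Rarres2, Dhrs4, Rdh14 and Retsat also rose past the threshold in each genotype. The Cd36 call in the wild type and the Dhrs4, Rdh14 and Retsat calls in the knockout were lost in some fits with 1 array left out. Other Rarres2 probe sets gave 0.17 and 1.36 in the wild type and -0.19 and 1.70 in the knockout. The coactivator Ncoa3 fell by 0.49 and 0.73 (0.0153 and 0.00151), and its fall in the wild type did not pass without E9.0 wild type replicate 1 (adjusted p = 0.054) or E10.5 wild type replicate 3 (adjusted p = 0.0699). Meis2 was the other fall that passed in the wild type, from a mean of 7.68 to 7.10 (-0.59), with -0.30, -0.48 and 0.067 on its other probe sets. Its knockout means were 7.62 at E9.0 and 7.58 at E10.5.

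Of the genes other than Rarb and Cyp26a1 whose windows hold the repeat with a spacing of 5 bases, 9 were measured. Between genotypes at E10.5 1 rose (Cfap45, by 0.49; adjusted p = 0.0172) and 1 fell (the platelet chemokine gene Ppbp, at -1.98 with adjusted p = 0.000241), beside 4.12% and 3.16% of all genes. The median change of the 9 was -0.14. Ppbp also passed in the difference between stages, at -1.97 (adjusted p = 0.0244). Cfap45 and Ppbp were named after their values were seen.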

How the data were processed

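RNA from pooled yolk sacs was read on Affymetrix whole-genome mouse arrays. The deposited table holds log2 values; the authors obtained them by RMA, as the submitters' processing notes record, and the version is not given in the sources used here. RMA brings all arrays to one distribution, which removes shifts shared by all genes, and compresses changes of dim probe sets. Arrays have no read depth, so their number limits the precision. Groups and replicate numbers came from the sample titles, and the design text calls the arrays biological repeats. After 64 control probe sets were left out, 34945 of 45037 probe sets carried 1 symbol in the platform annotation, and the brightest stood for a gene. A linear model with a mean for each group was fitted in limma 3.58.1 under R 4.3.3 to the 12 arrays together (lmFit and eBayes, 8 residual and 4.56 prior degrees of freedom), two-sided, after a check on simulated data. The 9 genes, the gene and marker lists and the naming rule were chosen with earlier results of these data known. The rule took the 9 genes, Setd2, listed retinoid genes past the threshold (at most 6 a list), the 3 most similar genes and up to 3 markers a list. The receptors, Cyp26b1, Rbp4, Cfap45, Ppbp, Scarb1, Col1a1, Tagln, Wt1 and the parietal endoderm, trophoblast and decidua genes were named after their values were seen. The same holds for Upk3b, Actc1, Nkx2-5 and Tbx5. The batch of replicate 3 was inferred from control probe sets. Deviations of same-numbered arrays from their group means correlated at 0.03 to 0.40 between genotypes of a stage and at -0.03 to 0.19 between stages. Between genotypes of a stage, replicate 3 against other numbers gave -0.36 to 0.02. Not every same-numbered pair was over 0.1, so the numbers were not taken as pairs in the main fit. Alternatives were a replicate or batch block, subsets of arrays or genes, other normalisations, other probe sets and another prior.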

Additional observations from a re-analysis of the deposited data

How the results depend on the processing

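No result changed direction past the threshold under any alternative fit, but single other probe sets were not scored in this way. Some of those had the opposite sign. With stage in the knockout 1 gave -0.19 for Rarres2 and 1 gave -0.20 for Dhrs7. With stage in the wild type 1 gave 0.067 for Meis2, and between genotypes at E10.5 1 gave -0.14 for Cyp1b1. Over the genotype differences of the 9 genes, 241 of 246 values under other settings and 318 of 324 values with 1 array left out moved by less than the spread between replicates. Many of these values could not move, so the counts do not measure robustness. The blocks, the 2 groups alone, the brighter genes and the other prior leave a fitted difference as it is. Averaging probe sets can move Rdh10 only. For a difference within a stage, leaving out an array of the other stage changes nothing. Of the tested genes, 455 of 501 and 651 of 732 stayed on their side of the threshold. At E9.0, 215 genes passed between genotypes, and 349 with a replicate block within stage, 286 with a replicate block over stages, 476 with the batch block, 69 with replicates 1 and 2 only and 61 with the 2 groups alone; with 1 array left out the count ran from 33 to 290. Among the other retinoid genes this count of 0 became 1 with the replicate block (Rdh12), within stage too, and 1 with the batch block (Rdh13), and 0 to 1 with 1 array left out. At E10.5, 1325 became 1605 with the replicate block, 2081 with the batch block, 773 with the 2 groups alone, 873 with brighter genes only and 693 to 1630 with 1 array left out. The count of 10 other retinoid genes became 6 with the 2 groups alone, with centred arrays and with brighter genes only, 8 with the replicate block, and 5 to 12 with 1 array left out; the 5 were without E10.5 wild type replicate 1, and the count was 6 without wild type replicate 2 or 3. For the difference between stages, 34 genes became 61 with the replicate block, 115 within stage, 91 with the batch block and 0 with brighter genes only, and 12 to 90 with 1 array left out. There the other retinoid genes went from 0 to 1 within stage (Aldh8a1), with quantile normalisation or another prior (Lpl), and 0 to 2 with 1 array left out. With stage, 4044 and 4290 genes became 2911 to 4513 and 3093 to 4790 with 1 array left out, and the other retinoid genes, 16 and 17, became 12 to 18 and 13 to 18. The Crabp1 rise with stage in the knockout missed the threshold in replicates 1 and 2 (1.16; adjusted p = 0.14) and in 5 of the other settings, and the Cyp26a1 fall in the wild type in 2. Beyond fewer arrays or genes in a fit, the cause was not tested. The signal of dim genes such as Aldh1a1 and Hoxb1 lies near the low end of the scale, which limits what their changes can show.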
